A study of Rattus with 9 samples.

Results

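Fcnb-positive inflammatory monocytes were taken from single-cell RNA sequencing of rat bile duct as the barcodes that passed a gate on unique molecular identifier (UMI) counts, where 1 UMI stands for 1 captured mRNA molecule. A barcode was kept when 401 to 5999 genes were detected, when mitochondrial genes took under 25% of its UMIs and when hemoglobin genes took under 3%. A kept barcode was a member when it held at least 1 UMI of Fcnb, at least 5 of Lyz2 and at least 1 of Tyrobp, at most 2 of C1qa, C1qb and C1qc together, and 0 of Cd3e, Cd79b, Epcam and Lum. In all, 10041 of 150379 kept barcodes were members. The members were thus chosen by their UMI counts of these 10 genes, a rule set with these libraries in view, and the levels of those genes are given as a description with no test.

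The samples were bile ducts of a sham group (3 samples, sham 1 to sham 3), of a group with liver transplantation (LT) after ischemic injury (ctrl), and of a group with the same transplantation in which ligation of the splenic and gastroduodenal arteries sent more arterial blood to the liver (treat). Ctrl and treat each had 1 sample on days 1, 3 and 7 after LT, so that 6 samples were grafts and all of them carried the transplantation and the ischemic injury. A sham sample was 1 library, and the 9 ctrl and 8 treat libraries analysed were summed within their sample, because it is not stated whether they are separate animals; 1 further treat library of day 3 was not analysed here. The labels give neither strain nor sex nor age, and the study's methods name young Sprague-Dawley rats of both sexes in a general statement on its animals and do not describe the treat arm. The p-values below therefore measure the spread between these 9 samples, which may be partly technical. No arm had a second graft on the same day. The gene p-values thus rest on the spread of the sham samples and on how unevenly the arms differed between days. They measure no spread between replicate grafts.

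Monocytes are made in the bone marrow, circulate in blood and enter injured tissue, where classical monocytes release cytokines and chemokines and can go on to become macrophages or antigen-presenting cells. Fcnb encodes ficolin-B, a lectin of the complement system that is made by immature myeloid cells, and Lyz2 encodes lysozyme. In a transplanted liver the bile duct is fed by the hepatic artery alone and is sensitive to poor arterial supply, and recipient monocytes are among the leukocytes that enter it early.

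Depth differed between samples. Members held a median of 5292, 4093 and 3289 UMIs per barcode in sham 1, 2 and 3, of 9507, 6979 and 4169 in ctrl on days 1, 3 and 7, and of 8975, 4905 and 4400 in treat on those days. The UMIs of all members summed to between 229742 in sham 1 and 15284250 in treat day 1, so sham levels of low genes rest on few molecules. RNA outside cells, taken from barcodes with at most 100 UMIs, made up an estimated 1.89% to 11.4% of the members' UMIs per sample, with the highest value in ctrl day 1. Libraries shared at most 1.19% of their barcodes, and no member barcode was shared in that pair. In 2 ctrl day 3 libraries the hemoglobin limit kept 437 of 2916 and 337 of 4303 barcodes.

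The label was checked against markers that the gate did not use. Mean levels over samples are UMIs per 1000000 UMIs of that kind of cell (CPM of plain totals), and the comparison cells were C1q macrophages, neutrophils and patrolling monocytes gated in the same libraries. Means are over 9 samples, except for neutrophils, where they are over 7. Il1b, the cytokine interleukin-1 beta, was at 3079 CPM in members, 1135 in C1q macrophages, 8105 in neutrophils and 1522 in patrolling monocytes. Ms4a6a, a membrane protein of monocytes and macrophages, was at 335 CPM in members, 448 in C1q macrophages, 115 in neutrophils and 172 in patrolling monocytes. Both given markers were thus present, but Il1b was higher in neutrophils and Ms4a6a in C1q macrophages.

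Classical monocyte genes were higher in members than in each of the comparison cells for Plac8 (8095 CPM against 1502, 2384 and 6047), Vcan (842 against 81.4, 59.3 and 150) and Cd14 (506 against 349, 36.0 and 161). Vcan encodes the matrix proteoglycan versican and Cd14 the co-receptor for lipopolysaccharide. F13a1, a coagulation factor subunit, was at 13.2 CPM in members and at 104 in C1q macrophages. Of the classical markers in the list used here, Ccr2 was not analysed here.

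Markers of the other cells were lower. The neutrophil genes Cxcr2, Mmp8 and Camp were at 4.32, 6.27 and 13.3 CPM in members and at 81.5, 554 and 344 in neutrophils. S100a8 (3611 CPM in members) and the patrolling marker Spn (31.5 CPM) are not compared, because the gates of neutrophils and of patrolling monocytes used them. The macrophage receptors Cd163, Folr2 and Marco were at 11.8, 60.1 and 0.168 CPM against 207, 329 and 41.3 in C1q macrophages. The dendritic cell genes Flt3, Xcr1, Clec9a, Ccr7 and Zbtb46 were each at 1.42 CPM or less in members, while Cst3 and Clec10a, which the dendritic list also holds and macrophages also make, were at 1100 and 377 CPM. Ratios to the nearest comparison cell were taken with 10 CPM added to each level. Among genes outside the gate and at 100 CPM or more in members, the highest were Vcan (5.33-fold), Fn1 (4.06-fold), Prss1 (3.86-fold) and Ass1 (3.78-fold). Sowahc, Gyg1 and S100a6 followed. Fn1 encodes fibronectin and Ass1 the arginine-making enzyme argininosuccinate synthase. Fn1 and S100a6 were not particular to members, since fibroblasts held them at 1118 and 6326 CPM, against 1089 and 5839 in members. Prss1 is a pancreatic trypsinogen, is not a monocyte gene, and is taken up with the sham samples below.

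**Figure D1:**
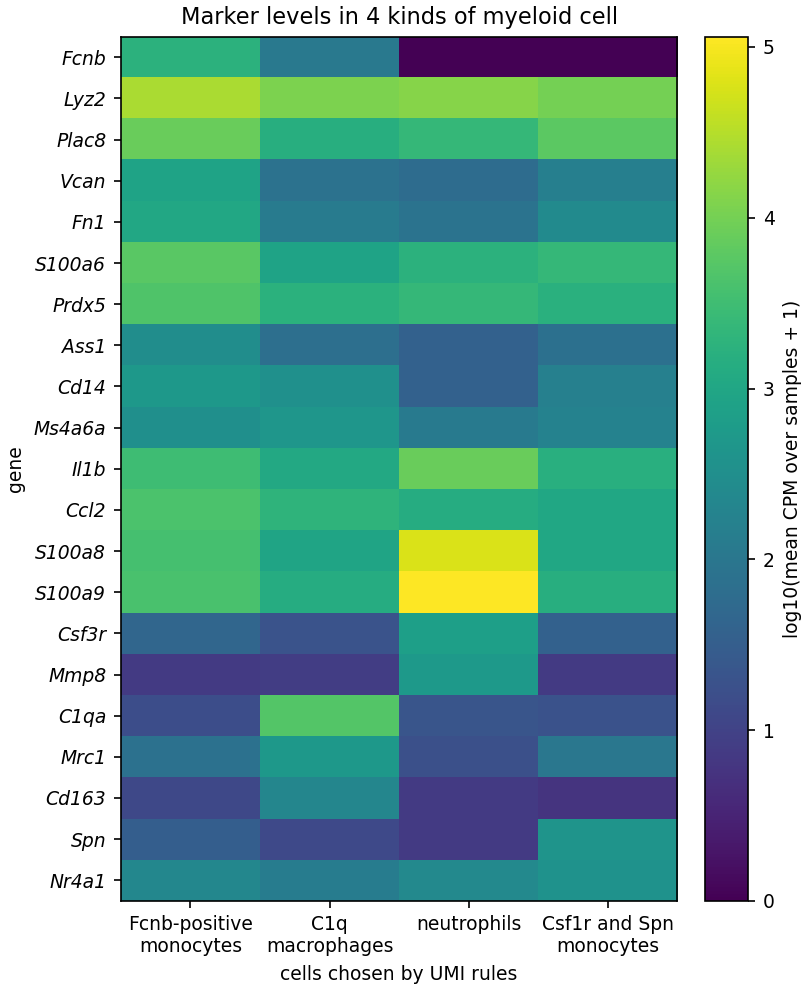
Mean level over samples of 21 marker genes (rows) in Fcnb-positive monocytes, C1q macrophages, neutrophils and patrolling monocytes (columns), as log10 of CPM plus 1, with brighter colour (towards yellow) for a higher level. Vcan and Plac8 are highest in the Fcnb-positive monocytes, S100a9 and Mmp8 in neutrophils, whose gate used S100a8, and Cd163 and Mrc1 in C1q macrophages.

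The edge of the gate held few barcodes for Lyz2 and more for Fcnb. Exactly 1 Fcnb UMI was found in 1465 members, 2 in 862 and 3 or more in 7714. A further 17943 barcodes met every other condition with 0 Fcnb UMIs. Those barcodes had a median of 2088 UMIs and S100a8 at 29030 CPM, against 4181, 2357 and 5455 CPM in members with 1, 2 and 3 or more Fcnb UMIs. Members with 5 Lyz2 UMIs numbered 23, beside 22 barcodes with 4 that were left out. Members with 2 C1q UMIs numbered 370, beside 160 barcodes with 3 that were left out.

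Members also differed among themselves. To compare samples of unequal depth, each member was thinned to 1000 UMIs, which left out 151 of 10041. Il1b then had a UMI in 69.6%, 76.2% and 84.8% of members in sham, in 43.2%, 63.6% and 75.7% in ctrl on days 1, 3 and 7, and in 50.4%, 76.8% and 76.3% in treat, beside at most 3.12% of fibroblasts, which should lack it. Without thinning these shares for Il1b were 71.9% to 92.9%. The 10% of members with the most of a gene held 30.3% to 50.7% of Il1b UMIs and 21% to 31.4% of Plac8 UMIs in a sample. For RT1-Da, a class II antigen-presentation gene, they held 92.6%, 52.4% and 53.2% in sham, 98.3%, 70.6% and 56.5% in ctrl and 94.9%, 39.2% and 37.3% in treat, so that on day 1 few members carried nearly all of it and on day 7 many did.

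Members were more frequent in every graft than in every sham sample. They were 46 of 2456 kept barcodes in sham 1 (1.87%, 95% Wilson interval 1.41 to 2.49), 65 of 9971 in sham 2 (0.652%, 0.512 to 0.830) and 99 of 11980 in sham 3 (0.826%, 0.679 to 1.00). In ctrl they were 508 of 13791 on day 1 (3.68%, 3.38 to 4.01), 981 of 8147 on day 3 (12%, 11.4 to 12.8) and 2258 of 34192 on day 7 (6.6%, 6.35 to 6.87). In treat they were 1658 of 24320 on day 1 (6.82%, 6.51 to 7.14), 2847 of 17679 on day 3 (16.1%, 15.6 to 16.7) and 1579 of 27843 on day 7 (5.67%, 5.41 to 5.95). Day 3 was the highest day in both arms. The intervals cover counting error only, and a share also moves when other cells become fewer or more.

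The mean share was 8.49% ± 4.65 (SD, n = 6) in grafts and 1.12% ± 0.660 (SD, n = 3) in sham, a difference of 7.37 percentage points and a ratio of 7.60 (two-sided exact permutation test, p = 0.0238, the smallest that 6 against 3 allows). Ctrl alone was at 7.44% ± 4.24 and treat alone at 9.53% ± 5.72 (SD, n = 3 each). Each arm stood above sham without overlap, by 6.33 and 8.41 points, at exact permutation p = 0.1, the smallest that 3 against 3 allows. Without ctrl day 3 the ctrl difference was 4.03 points, and without treat day 3 the treat difference was 5.13 points. Treat was higher than ctrl on 2 of 3 days, by 2.09 points on average (exact sign-flip permutation over 3 days, p = 0.5, where the smallest possible is 0.25), which does not pass. With a day left out the difference was 1.10 to 3.60 points. As a share of myeloid barcodes treat was higher on 3 of 3 days, by 14.9 points, and with barcodes thinned to 1000 UMIs also on 3 of 3 days, by 2.76 points, each at the smallest possible p of 0.25 in the exact sign-flip permutation. With a sham sample left out the p for grafts became 0.0714, again the smallest possible, at differences of 7.14 to 7.75 points.

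Libraries of 1 sample differed widely in this share. They held 6.6%, 0.535% and 0.992% members in ctrl day 1, 11.9%, 17.4% and 8.01% in ctrl day 3, and 3.35%, 18.1% and 3.56% in ctrl day 7. In treat they held 15.2%, 5.02% and 1.87% on day 1, 12.2% and 19.4% on day 3, and 4.89%, 10.1% and 1.85% on day 7. A single library gave 89.4% of the members of ctrl day 1 and 89.5% of those of ctrl day 3. The ranges of libraries of grafts and sham therefore overlapped, although those of the samples did not. Neutrophils by their gate were 0.0334% to 0.814% of kept barcodes in sham, 11.6%, 11.3% and 1.92% in ctrl and 7.27%, 1.45% and 1.26% in treat; their part in the monocyte share was not tested. As a share of myeloid barcodes members stood 17.0 points higher in grafts, without overlap (exact permutation p = 0.0238).

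**Figure D2:**
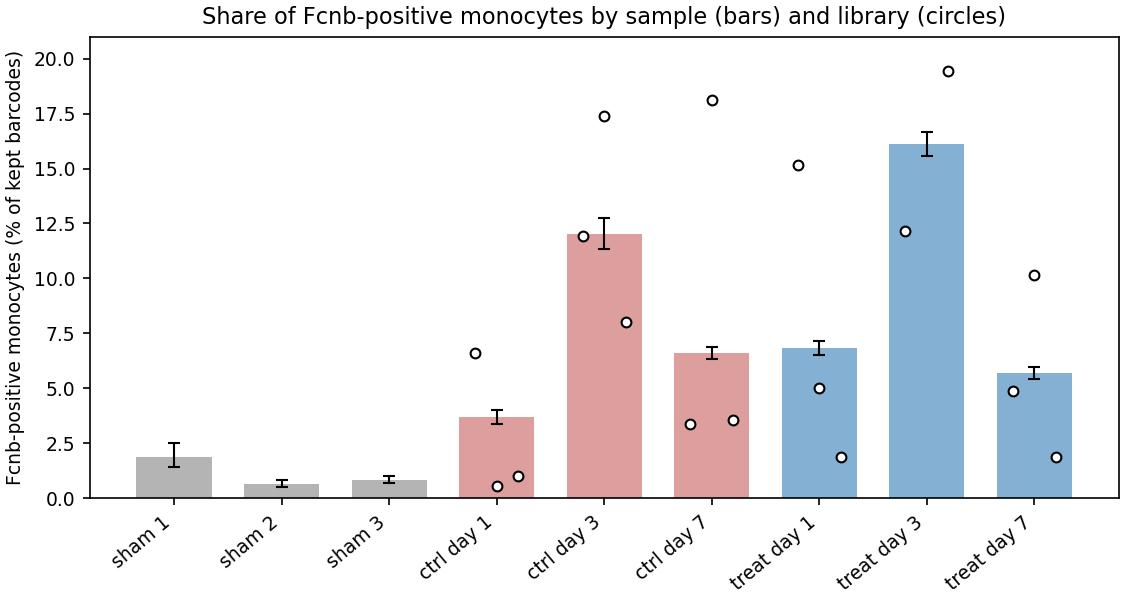
Share of kept barcodes that were Fcnb-positive monocytes, in percent, for the 9 samples in the order sham, ctrl and treat; bars are samples with their 95% Wilson interval (counting error only) and circles are libraries. All 6 grafts (3.68% to 16.1%) stand above the 3 sham samples (0.652% to 1.87%), while circles of 1 sample are far apart.

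Gene levels were compared on UMIs summed per sample over the members, in one edgeR quasi-likelihood fit of all 9 samples with Benjamini-Hochberg adjustment over 10390 genes (adjusted p), and a gene was called at an adjusted p under 0.05. Levels below are CPM after TMM normalization, given for sham 1, 2 and 3, then ctrl days 1, 3 and 7, then treat days 1, 3 and 7, and differences are log2 fold changes ± SE. The comparisons share samples and are not independent of each other. Genes of the RT1 class II family and of the pancreatic protease families resemble each other, so how reads were divided among their members is uncertain.

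In grafts against sham, monocytes carried more of the calprotectin genes S100a8 and S100a9, of 11 of 27 glycolysis and hypoxia genes and of Nos2. They carried less of the monocyte-attracting chemokine genes Ccl2 and Ccl7. The interferon-induced chemokine gene Cxcl11 was also called higher, but its source was not tested. Of 10390 genes, 521 were called, 5.01% of those tested, 330 higher (3.18%) and 191 lower (1.84%). With no adjustment 2188 genes (21.1%) had p under 0.05. All grafts stood on 1 side of all sham samples for 19.4% of genes, and above them for 15.0%. The median difference over all genes was 0.09; with DESeq2 size factors it was -0.02, and the calls were 186 higher and 227 lower, so the balance between directions depends on the scaling. Without sham 3 only 37 genes were called and without sham 2 only 80.

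S100a8 and S100a9 encode the subunits of calprotectin, an alarmin of neutrophils and inflammatory monocytes. S100a8 was at 214, 92.3 and 238 CPM in sham, 14283, 3732 and 1404 in ctrl, and 11605, 1477 and 613 in treat. S100a9 was at 75.0, 36.3 and 85.6 CPM in sham, 16081, 4245 and 2728 in ctrl, and 12730, 861 and 1066 in treat. Every graft was above every sham sample, and both day 1 grafts were the highest. S100a8 rose by 4.08 ± 0.34 (adjusted p = 1.98e-05) and S100a9 by 5.82 ± 0.41 (adjusted p = 6.56e-06) in grafts. Neutrophils by their gate were also most frequent among kept barcodes on day 1 in both arms. That gate required S100a8, so their share is not independent of these genes. In ctrl it was 11.6% on day 1 and 11.3% on day 3, and S100a8 went from 14283 to 3732 CPM. In treat it was 7.27% on day 1 and 1.45% on day 3, and S100a8 went from 11605 to 1477 CPM. The source of these UMIs was not tested. Without the members that held any Csf3r, Cxcr2 or Mmp8 UMI the differences were 3.73 for S100a8 and 5.4 for S100a9, and after subtraction of the empty-barcode profile they were 3.95 and 5.70, each still called. Empty-barcode RNA was estimated to give 39.9% of the S100a8 and 59.3% of the S100a9 UMIs of members in ctrl day 7, and at most 14.4% and 27.9% of them in the other samples. Thinned to 1000 UMIs, 10.9%, 11.1% and 14.1% of members held an S100a8 UMI in sham, 80.8%, 50.3% and 25.9% in ctrl and 78.7%, 36.4% and 14.1% in treat, beside at most 5.48% of fibroblasts.

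Of the 16 neutrophil genes tested, 5 rose and 1 fell, with a median of 2.85, or of 1.57 with the 5 genes at 0 in sham set to their bound. Slpi, a protease inhibitor, was at 2082, 1286 and 1185 CPM in sham, 28511, 15973 and 7565 in ctrl, and 6167, 13497 and 3845 in treat, without overlap (2.80 ± 0.33, adjusted p = 0.000213). Lcn2, the iron-binding lipocalin, rose by 2.42 and Csf3r, the receptor for granulocyte colony-stimulating factor, by 1.10 ± 0.28 (adjusted p = 0.0411), a call that held in 9 of 19 alternatives and in none that left out a sham sample. G0s2, an inhibitor of lipolysis, went the other way at 822, 1101 and 2767 CPM in sham against 257 to 769 in grafts, and fell by 2.0 ± 0.31 (adjusted p = 0.00221). The summed level of the neutrophil list was 2601 to 4356 CPM in sham and 6103 to 59620 in grafts. The defining neutrophil genes Mmp8 and Cxcr2 were at 0 in all sham samples.

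Cd8a encodes the CD8 alpha chain, which cytotoxic T cells carry and which some rat monocytes and macrophages also make. It was at 0 CPM in all 3 sham samples, 292, 92.4 and 56.6 in ctrl, and 147, 136 and 33.5 in treat. By summed counts grafts were at least 37.0-fold higher than sham, with sham set to 3 UMIs over the group. The fit called Cd8a higher (adjusted p = 0.000189). A Cd8a UMI was present in 53.9%, 27.9% and 14.0% of members in ctrl and 37.5%, 25% and 9.82% in treat. Thinned to 1000 UMIs these shares were 19.0%, 7.84% and 3.63% in ctrl and 10%, 7.52% and 3.90% in treat, beside at most 0.952% of fibroblasts, and were highest on day 1 in both arms. Cd3e was at 0 by the gate. Cd3d, another T cell receptor chain, was found in 13 of 508, 11 of 981 and 34 of 2258 members in ctrl. In treat Cd3d was found in 10 of 1658, 42 of 2847 and 35 of 1579. Cd3g, a further chain, had 79 UMIs in all grafts. The lymphocyte gene Cd2 was found more often, in 52, 168 and 452 of the same members in ctrl and 105, 109 and 79 in treat. The part of T cell RNA in Cd8a was not tested. Empty-barcode RNA was estimated at 2.55% to 26.1% of the members' Cd8a UMIs in grafts. Cd8a was itself among the genes that set the share of such RNA, which counts its UMIs in members as free RNA. The estimate therefore cannot decide the source of Cd8a.

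Nos2, the inducible nitric oxide synthase, was at 0, 3.30 and 0 CPM in sham, 26.1, 86.2 and 137 in ctrl, and 13.7, 145 and 67.0 in treat, without overlap (5.82 ± 0.82, adjusted p = 0.00121). With 1 UMI in all of sham, the ratio of summed counts for Nos2 was 76.1, with a counting interval of 13.7 to 3006. Cxcl9 and Cxcl11 encode chemokines that draw activated T cells through the receptor CXCR3. Cxcl9 was at 3.75, 0 and 0 CPM in sham, 1.41, 34.1 and 85.0 in ctrl, and 5.07, 466 and 335 in treat. The ctrl day 1 graft lay within the sham range of Cxcl9, so the groups overlapped. In the fit Cxcl9 rose by 5.13 ± 0.88, or 35.0-fold (adjusted p = 0.00539). The ratio of summed counts was 158, with a counting interval of 28.3 to 6239. Both rest on days 3 and 7. On those days fibroblasts held Cxcl9 UMIs more often than members did, by the thinned shares given with day 7. A share in fibroblasts cannot settle the source of the members' Cxcl9, which was not tested. The Cxcl9 level of members is therefore not read as expression of their own in any comparison. Cxcl11 was at 0, 0 and 5.35 CPM in sham, 3.29, 84.9 and 134 in ctrl, and 20.2, 908 and 361 in treat, with the same overlap. In the fit it rose by 5.29 ± 0.71, or 39.0-fold (adjusted p = 0.000881). The ratio of summed counts was 135 (counting interval 37.5 to 1118), and treat day 3 held 11607 of the 16710 graft UMIs. Empty-barcode RNA was estimated at 11.9% of the members' Cxcl11 UMIs in ctrl day 1 and 1.67% to 4.38% in the other grafts. Cxcl11 was not looked up in fibroblasts, and its source was not tested. Ccl5, which attracts T cells and monocytes, was at 0 in sham and 5.14 to 190 CPM in grafts, at least 18.1-fold higher by summed counts. The fit called it (adjusted p = 0.0393), a call lost in 7 of 20 alternatives, among them each that left out a sham sample.

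Ccl2 and Ccl7 encode chemokines that draw monocytes through CCR2. Ccl2 was at 3560, 8622 and 12603 CPM in sham, 1871, 1522 and 1276 in ctrl, and 2462, 3237 and 1470 in treat. All grafts were below all sham samples, the nearest being sham 1 and treat day 3. Ccl2 fell by 2.13 ± 0.29 on the log2 scale (adjusted p = 0.00104), a call that was lost without sham 3. Ccl7 was at 158, 1065 and 1798 CPM in sham and 84.7 to 478 in grafts, overlapping through sham 1, and fell by 2.61 ± 0.47 (adjusted p = 0.00701), a call lost without sham 2, without sham 3 and in a fit without day. Il1b, the given marker for the inflammatory state, was at 2247, 3047 and 5017 CPM in sham, 1652, 2115 and 4402 in ctrl, and 1608, 4622 and 3233 in treat. The groups overlapped over most of their range, and the difference for Il1b of -0.32 ± 0.28 was not called (adjusted p = 0.539). The neutrophil-attracting chemokine Cxcl2 likewise gave -0.16 (adjusted p = 0.722). Over the 32 genes of the inflammatory list, 3 rose (Ccl5, Cxcl10 and Il23a) and 4 fell (Ccl2, Ccl7, Nlrp3 and Tnfaip3), with a median of -0.03 (-0.21 with 4 genes at their bound).

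The glycolysis and hypoxia list held 11 genes that rose and none that fell, of 27 tested, with a median of 0.96 beside 0.09 over all genes (0.93 with 1 gene at its bound). Pgk1, phosphoglycerate kinase, was at 450, 336 and 404 CPM in sham, 1511, 885 and 700 in ctrl, and 1024, 755 and 499 in treat, with no overlap (1.09 ± 0.21, adjusted p = 0.0101). Ldha, the lactate dehydrogenase subunit, was at 840, 547 and 1011 CPM in sham and 1086 to 2227 in grafts, again with no overlap (1.02 ± 0.23, adjusted p = 0.0236). Hif1a, the oxygen-regulated transcription factor, was at 116, 85.7 and 115 CPM in sham and 133 to 331 in grafts (1.22 ± 0.26, adjusted p = 0.0161). Hk3, the hexokinase of myeloid cells, rose by 3.53 ± 0.50, Pfkl by 2.09 ± 0.37, Eno1 by 1.17 ± 0.24 and the mitochondrial protein gene Bnip3 by 2.70 ± 0.48. Gpi, Aldoa, Tpi1 and Pgam1 rose by 0.93 to 1.64. With DESeq2 size factors 10 of these 11 calls held, all but Aldoa. None of the 11 held without sham 3, and Hk3 alone held without sham 2.

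Of the 39 interferon-stimulated genes tested, 5 rose and none fell, with a median of 0.94 (0.84 with 2 genes at their bound), and 37 had a difference above 0. The summed level of the list was 1868 to 2793 CPM in sham and 3475 to 6395 in the grafts other than treat day 1. In treat day 1 it was 1125, below all sham samples. Isg15, a ubiquitin-like protein, was at 60.0, 46.2 and 40.1 CPM in sham, 285, 153 and 693 in ctrl, and 36.1, 364 and 338 in treat. Treat day 1 was the 1 graft below sham for Isg15 (2.47 ± 0.56, adjusted p = 0.0240). After thinning, 6.52%, 4.76% and 4.04% of members held an Isg15 UMI in sham. The shares were 18.4%, 7.95% and 31.7% in ctrl and 2.85%, 16.9% and 22.3% in treat. In fibroblasts they were 4.81%, 9.55% and 5.92% in sham, 6.92%, 6.07% and 24.0% in ctrl, and 2.02%, 38.8% and 21.4% in treat. Fibroblasts were higher in sham 2, sham 3 and treat day 3. Empty-barcode RNA was estimated at 5.25% to 23.6% of members' Isg15 UMIs in grafts. The source of Isg15 was not tested. Oas1a, a sensor of viral RNA, was at 11.2 to 26.4 CPM in sham and 50.7 to 160 in grafts, without overlap (2.23 ± 0.36, adjusted p = 0.00351). Ifit3, Gbp2 and Cxcl10 rose by 2.26, 2.0 and 1.74, calls that held in 14, 15 and 11 of 20 alternatives, and that for Cxcl10 in none that left out a sham sample.

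Other genes that rose were Fcgr3a, an Fc receptor for antibody (3.52 ± 0.57, adjusted p = 0.0038; 0 to 15 CPM in sham and 9.62 to 304 in grafts), and Il18bp, a decoy for interleukin-18 (2.83 ± 0.52, adjusted p = 0.00742; 7.5 to 13.4 against 16 to 348 CPM). Fcgr3a overlapped through both day 1 grafts and Il18bp did not overlap. Ms4a6a, the given marker outside the gate, was at 67.5, 191 and 85.6 CPM in sham, 558, 354 and 501 in ctrl, and 371, 674 and 345 in treat, and rose by 2.02 ± 0.36 (adjusted p = 0.00659) without overlap. Trem2, a lipid receptor of tissue macrophages, was at 18.8, 89.0 and 74.9 CPM in sham and 4.46 to 18.0 in grafts, and fell by 2.98 ± 0.41 (adjusted p = 0.00104) without overlap. Cxcr4, which holds leukocytes where CXCL12 is made, was at 518, 570 and 963 CPM in sham and 119 to 398 in grafts, and fell by 1.38 ± 0.23 (adjusted p = 0.00455).

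Of 35 repair and matrix genes, 3 were called higher (Gpnmb by 1.20, Tgm2 by 1.81, and Pdgfa), beside 3.18% of all genes. Trem2 alone was called lower, which is no result about the list where 1.84% of all genes were called lower. The median of the list was 0.29, or 0.19 with 1 gene at its bound. Pdgfa, a growth factor for fibroblasts, had 2 UMIs in all of sham and a ratio of summed counts of 6.47, with a counting interval of 1.79 to 53.5. Of 11 resident macrophage genes tested outside the gate, 2 fell, among them Lyve1 by 2.97, and none rose (median -0.93). Of 31 immediate-early and stress genes 3 fell, Fosb, Klf6 and Hspa1b by 0.91 to 1.16, and none rose. None of 35 cell cycle genes was called (median -0.04, or -0.11 with 3 genes at their bound), which is no result about the list where 5.01% of all genes were called.

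The genes with the largest falls were not monocyte genes. Pnliprp1, Prss1, Pnlip, Cpa1, Cela3b, Ctrb1, Prss3b, Cpb1, Clps and Sycn, all of which belong to the digestive secretion of the exocrine pancreas, fell by between 7.75 and 10.40 on the log2 scale. Prss1 was at 3.75, 2526 and 297 CPM in sham and at most 3.16 in grafts, so it was high in sham 2 and sham 3 only. In sham 2, 725 of its 766 UMIs (94.6%) lay in 1 barcode, a point looked up after the values were seen, and in sham 3 it was found in 67 of 99 members. Empty-barcode RNA was estimated at 6.15% of Prss1 UMIs in sham 2 and 56.0% in sham 3. The summed fibroblast list was at 199 to 514 CPM in sham and 257 to 438 in grafts, the epithelial list at 326 to 415 and 221 to 513, and the endothelial list at 48.8 to 112 and 72.2 to 146, so these ranges overlapped. The lymphocyte list stood at 5.35 to 18.8 CPM in sham and 103 to 329 in grafts, of which Cd8a was a large part; without Cd8a it was at 23.1 to 117 in grafts. The part of such RNA in the called genes was not tested gene by gene.

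**Figure D3:**
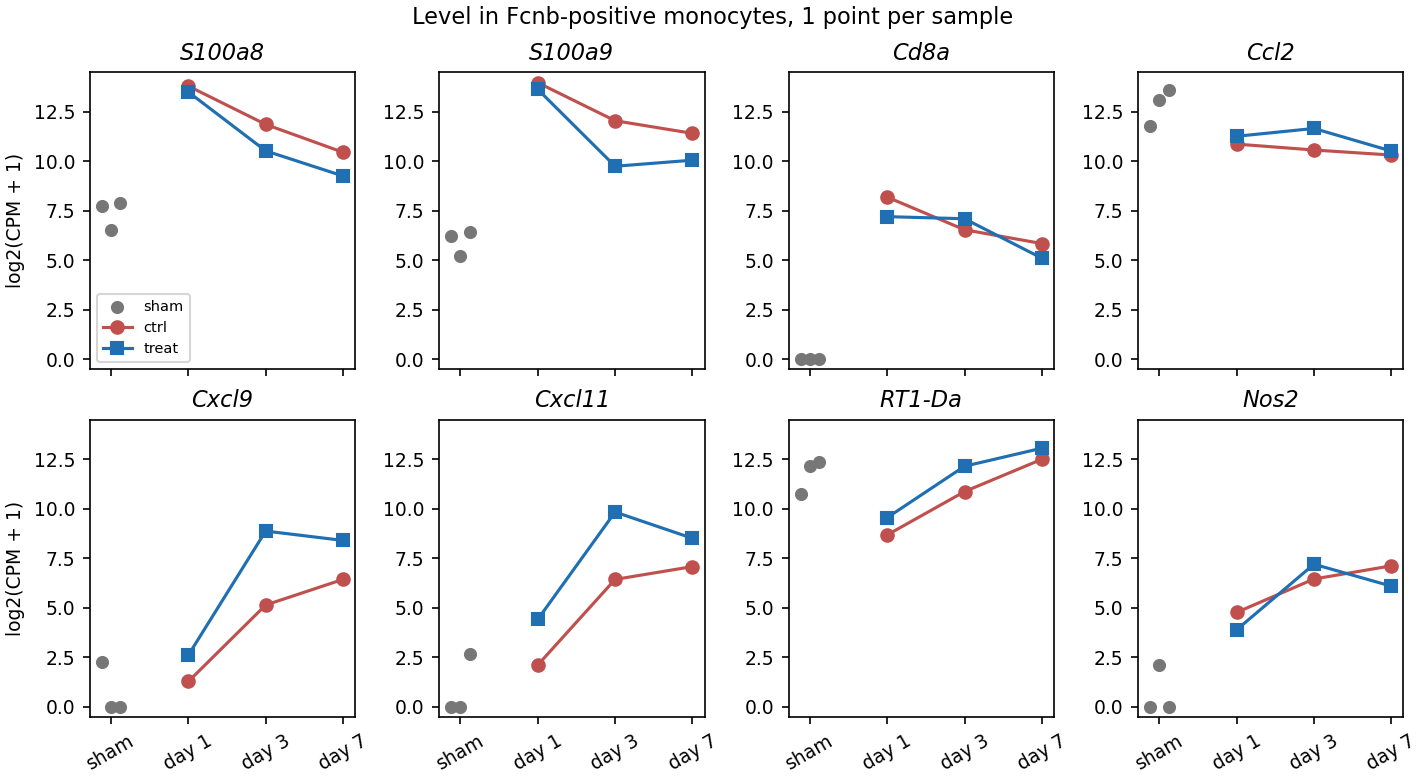
Level of 8 genes in Fcnb-positive monocytes as log2 of CPM plus 1 (vertical axis) in each of the 9 samples, with sham at the left and days 1, 3 and 7 after LT evenly spaced, ctrl and treat in separate colours. S100a8, S100a9 and Cd8a are highest on day 1 and near or at their lowest in sham, Ccl2 is highest in sham, and Cxcl9, Cxcl11 and RT1-Da are higher on days 3 and 7 than on day 1 in both arms.

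Between day 1 and day 7, 10 of 13 class II antigen-presentation genes, 14 of 39 interferon-stimulated genes and 11 of 32 inflammatory genes rose in monocytes, while S100a8, S100a9 and the eotaxin gene Ccl24 fell. Of 10390 genes, 695 were called, 6.69% of those tested, 500 higher (4.81%) and 195 lower (1.88%) on day 7, and 2319 (22.3%) had an unadjusted p under 0.05. Each day had 1 sample of each arm, and without treat day 1 only 130 genes were called. The median over all genes was 0.01.

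The class II genes encode the molecules that present peptides to CD4 T cells, and 10 of the 13 tested rose with none falling (median 3.38). RT1-Da was at 407, 1858 and 5765 CPM on days 1, 3 and 7 in ctrl and at 746, 4515 and 8494 in treat, beside 1681, 4507 and 5167 in sham. Both arms were higher on each later day, and both day 1 grafts were below all sham samples (3.68 ± 0.45, adjusted p = 0.000492). Cd74, the invariant chain that guides class II molecules, was at 532, 2166 and 6212 CPM in ctrl and 737, 6699 and 9196 in treat, beside 1808, 6142 and 5453 in sham (3.59 ± 0.50, adjusted p = 0.00108). RT1-Db1 rose by 3.76 ± 0.41, RT1-Ba by 3.69 ± 0.38 and RT1-Bb by 3.56. Ciita, the class II transactivator, was at 0 and 2.97 CPM on day 1 and 11 and 26.9 on day 7 (3.38). The costimulatory genes Cd40 and Cd86 rose by 2.26 and 1.44. The dendritic cell list moved the same way, with a median of 1.17. Its summed level went from 958 to 1466 CPM in ctrl and from 926 to 2461 in treat between days 1 and 7, beside 1722 to 2559 in sham. The lymphocyte list without Cd8a went from 37.3 to 117 CPM in ctrl and from 25.2 to 69.9 in treat. The part of either in the class II rise was not tested.

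The share of members with an RT1-Da UMI, thinned to 1000 UMIs, was 7.33%, 31.8% and 48.9% in ctrl and 13.4%, 68.6% and 77.1% in treat, beside 17.4%, 50.8% and 48.5% in sham. Without thinning it was 15.7%, 50.7% and 57.8% in ctrl and 23.5%, 79.9% and 83.5% in treat. Fibroblasts, thinned alike, held an RT1-Da UMI in 0.288%, 2.70% and 14.9% in ctrl and 0.735%, 11.1% and 25.2% in treat. The share in fibroblasts was thus also higher on later days, but below that in members in every sample. Such a share cannot tell free RNA from expression by the fibroblasts, and the source of the members' RT1-Da was not tested. Empty-barcode RNA was estimated at 23.3% of RT1-Da UMIs in ctrl day 1 and 4.15% to 7.72% in the other grafts, and after its subtraction the difference was 3.84. Libraries of ctrl day 7 were at 8551, 1892 and 11639 CPM of RT1-Da, so the second was far from the others. That library also held the highest share of members in its sample and 2526 CPM of S100a8, against 365 and 399 in the other two.

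Of 39 interferon-stimulated genes, 14 rose from day 1 to day 7 and none fell (median 1.62). Cxcl9 and Cxcl11, which that list does not hold and whose values in every sample are given above, rose by 6.23 ± 0.55 (adjusted p = 5.55e-05) and 4.81 ± 0.51 (adjusted p = 0.000185). Cxcl9 had a UMI in 0.394%, 3.87% and 7.00% of members in ctrl and in 0.663%, 26.2% and 21.2% in treat, and thinned to 1000 UMIs in 0.198%, 1.75% and 3.32% in ctrl and 0.425%, 14.2% and 11.7% in treat. Fibroblasts, thinned alike, held a Cxcl9 UMI in 0.288%, 2.25% and 21.7% in ctrl and 0.234%, 36.7% and 41.7% in treat. The shares in members were thus not above those in fibroblasts on days 3 and 7. The source of the members' Cxcl9 was not tested, and these shares are not read as expression of their own. Empty-barcode RNA was estimated at 57.3% of the members' Cxcl9 UMIs in ctrl day 1 and 4.22% to 8.93% in the other grafts, and after its subtraction the Cxcl9 difference was 6.53 and still called. Cxcl10, the other ligand of CXCR3, was at 48.4, 187 and 312 CPM in ctrl and 40.1, 744 and 568 in treat (3.17 ± 0.56, adjusted p = 0.00473). The guanylate-binding protein gene Gbp5 was at 6.57, 54.4 and 58.4 CPM in ctrl and 7.49, 162 and 127 in treat (3.66 ± 0.44, adjusted p = 0.0004). Ubd, a ubiquitin-like modifier, was at 4.23, 19.6 and 31.8 CPM in ctrl and 1.61, 179 and 156 in treat (4.83 ± 0.84, adjusted p = 0.00617), with 12.2% to 43.6% of its UMIs estimated as empty-barcode RNA. The transcription factor gene Irf1 rose by 1.66 and Bst2, which tethers budding viruses, by 1.93.

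Of 32 inflammatory genes, 11 rose and none fell (median 1.12). The summed level of the list was 15246 to 31191 CPM in sham. In ctrl and treat it was 14336 and 11113 on day 1 and 20744 and 14909 on day 7, so neither day 7 graft stood above the sham range. Ptgs2, the prostaglandin-making enzyme COX-2, was at 80.5, 185 and 664 CPM in ctrl and 85.9, 593 and 459 in treat (2.80 ± 0.54, adjusted p = 0.00762). Ccl5 rose by 3.58 ± 0.63, Ccl4 by 2.68 ± 0.58, Cxcl16 by 3.27 ± 0.47 and the cytokine gene Il6 by 2.36 ± 0.39. Il23a, a subunit of interleukin-23, was at 7.75, 16.2 and 95.2 CPM in ctrl and 5.38, 29.3 and 40.6 in treat (3.35 ± 0.45, adjusted p = 0.00095). Il1b was higher on day 7 than on day 1 in both arms, but its difference of 1.24 ± 0.40 was not called (adjusted p = 0.0797). Nos2 rose by 2.37 ± 0.42.

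Of 31 immediate-early and stress genes, 11 rose and none fell (median 1.08). The summed level of the list was 14462 to 15984 CPM in sham. In ctrl and treat it was 9383 and 7712 on day 1 and 16554 and 15404 on day 7. Day 7 was thus within the sham range in treat and just above it in ctrl. Dusp2, a phosphatase of MAP kinases, was at 27.2, 78.0 and 255 CPM in ctrl and 29.7, 251 and 185 in treat (3.00 ± 0.44, adjusted p = 0.00155). Egr1 was at 63.9, 231 and 184 CPM in ctrl and 57.4, 262 and 285 in treat (1.93 ± 0.30, adjusted p = 0.00224), and Fosb rose by 1.30.

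Monocyte genes changed in both directions. Of 14 patrolling monocyte genes, 5 rose (Fcgr3a, Treml4, Ceacam1, Hes1 and Cd300e; median of the list 1.23), and Fcgr3a was at 9.62, 100 and 195 CPM in ctrl and 11.3, 304 and 230 in treat (4.37 ± 0.48, adjusted p = 0.000204). Of 16 classical monocyte genes, Plac8 rose by 1.43 ± 0.37 and 4 fell. F13a1 was at 76.5, 3.79 and 1.73 CPM in ctrl and 12.4, 0.230 and 0.130 in treat (-5.71 ± 0.73, adjusted p = 0.000647), and Vcan at 1544, 1451 and 694 in ctrl and 1524, 588 and 351 in treat (-1.68 ± 0.42, adjusted p = 0.0283). Thbs1, the matrix protein thrombospondin-1, fell by 3.01, and Hp, haptoglobin, by 2.45 ± 0.44.

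Of 18 complement and lectin genes 4 rose and 1 fell (median 0.12). Serping1, the C1 inhibitor, was at 1.88, 13.4 and 22.1 CPM in ctrl and 3.84, 52.2 and 37.1 in treat, beside 3.30 to 5.35 in sham (3.48 ± 0.40, adjusted p = 0.000259). C1r and Cd55 rose by 1.73 and 1.66, and the C5a receptor gene C5ar1 fell by 1.15. Of 35 repair and matrix genes, 4 fell, among them the lysosomal protease gene Ctsd by 1.53, beside 1.88% of all genes called lower. Only the macrophage elastase gene Mmp12 rose, by 3.2, which is no result about the list where 4.81% of all genes were called higher. The cell cycle list held 2 genes that rose of 35 (median 0.78), which is no result about the list where 4.81% of all genes were called higher.

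S100a8 and S100a9 fell by 3.83 ± 0.42 (adjusted p = 0.000204) and 3.15 ± 0.44 (adjusted p = 0.00108) from day 1 to day 7, beside 6 of 16 neutrophil genes that fell and none that rose (median -1.47). Without members holding neutrophil UMIs the differences were -3.97 and -3.52. Cd8a fell by 2.26 ± 0.38 (adjusted p = 0.00525). Ccl24, a chemokine for eosinophils, was at 276, 83.8 and 5.90 CPM in ctrl and 167, 1.57 and 1.41 in treat (-6.60 ± 0.97, adjusted p = 0.00153). Both arms were high on day 1 and near 0 on day 7. Ltb4r, the receptor for leukotriene B4, was at 124, 61.9 and 20.9 CPM in ctrl and 102, 13.2 and 4.10 in treat (-3.65, adjusted p = 0.00142). The hemoglobin scavenger receptor gene Cd163 was at 28.9, 7.84 and 1.53 CPM in ctrl and 54.8, 5.79 and 0.770 in treat (-5.13 ± 0.53, adjusted p = 0.000185). Il1r2, a decoy receptor for interleukin-1, fell by 2.85, the triglyceride enzyme gene Dgat2 by 2.68, the endocytic adaptor gene Dab2 by 2.61, the chemokine receptor gene Ccr1 by 2.05 ± 0.35 and Lcn2 by 2.81. Among the glycolysis and hypoxia genes 2 rose and 3 fell of 27 (median -0.41), Pgk1 falling by 1.07 and Vegfa rising by 1.77. The immunoglobulin gene Igh-6 was also called higher on day 7, but 868 of its 973 UMIs in treat day 7 (89.2%) lay in 1 barcode, a point looked up after the values were seen.

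**Figure D4:**
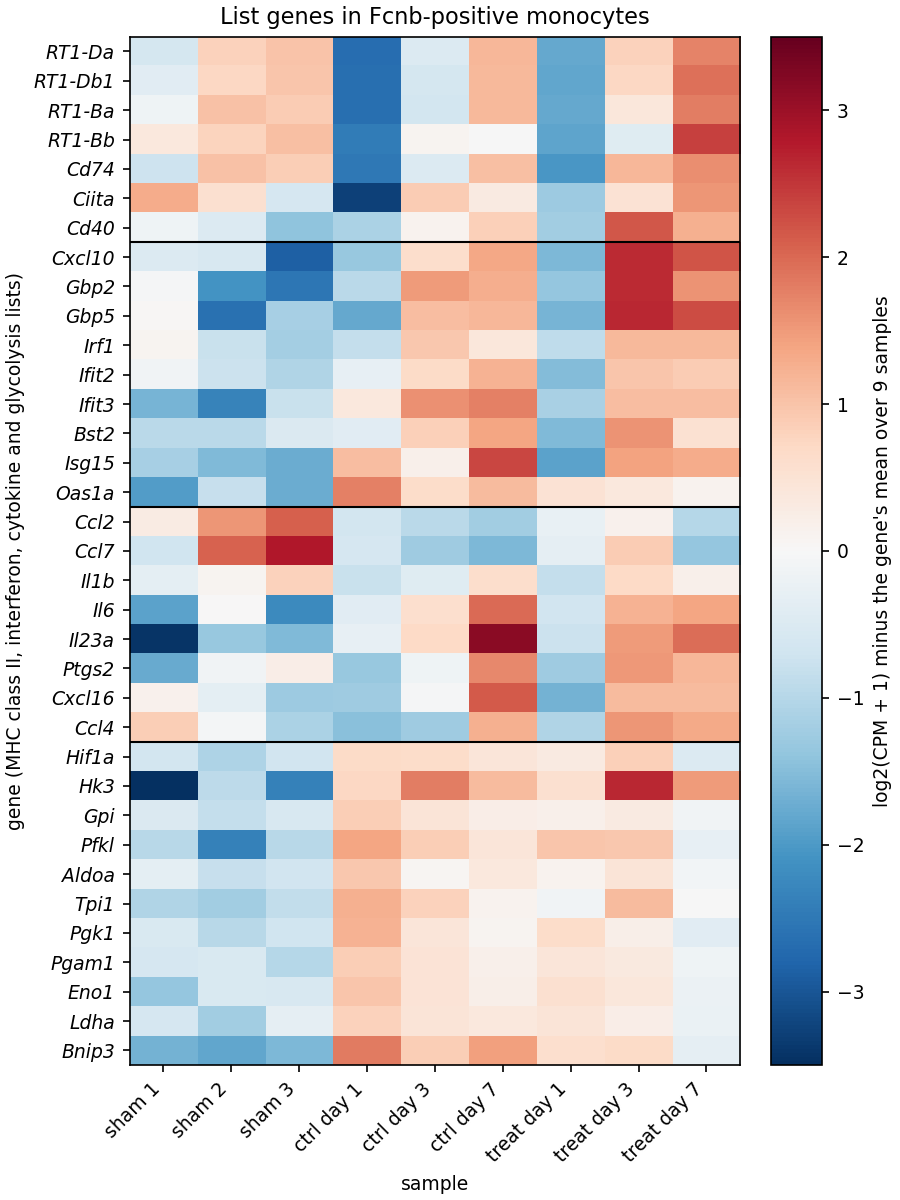
Level of 35 genes of the class II, interferon-stimulated, inflammatory cytokine and glycolysis lists (rows) in the 9 samples (columns), as log2 of CPM plus 1 minus the mean of the gene over samples, with colour limited to 3.5 in either direction. Most class II rows are low in both day 1 grafts and higher on day 7, and most glycolysis rows are low in the 3 sham samples.

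On day 3 against day 1, 184 genes were called, 1.77% of those tested, 135 higher (1.30%) and 49 lower (0.472%), with 1404 (13.5%) at an unadjusted p under 0.05. Without treat day 1 only 22 and without treat day 3 only 51 were called. Cxcl11 rose by 5.14 ± 0.51 (adjusted p = 0.000311), Ubd by 4.73 ± 0.86 and Fcgr3a by 4.15 ± 0.48. Cxcl9 was higher by 5.88 ± 0.54 (adjusted p = 0.000255), with the limit from fibroblasts given above. Gbp5 rose by 3.81 ± 0.44, Gbp2 by 3.23 ± 0.56, Il18bp by 3.19 ± 0.48 and Cxcl10 by 3.10 ± 0.57. Plaat3, a phospholipase gene, was at 23.2 and 124 CPM on days 1 and 3 in ctrl and 13.2 and 335 in treat (3.58), and the calponin gene Cnn3 rose by 3.12. Of 13 class II genes 7 rose (median 2.09), with RT1-Da at 2.41 ± 0.43 (adjusted p = 0.0111) and Cd74 at 2.64 ± 0.48 (adjusted p = 0.0122). Of 39 interferon-stimulated genes 7 rose (median 1.11) and of 32 inflammatory genes 4 (median 0.64), with none of either list falling. None of the 27 glycolysis and hypoxia genes was called (median 0.03), which is no result about the list where 1.77% of all genes were called.

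On the falling side of day 3, S100a9 fell by 2.91 ± 0.44 (adjusted p = 0.00467), S100a8 by 2.48 ± 0.39 (adjusted p = 0.00644), Lcn2 by 2.34 and Ccl24 by 3.76 ± 0.89 (adjusted p = 0.0467), the last a call that held in 9 of 19 alternatives. Ltb4r, Krt18, Plp2, Mtss1, Serpinb6a and Fbln1 fell by 1.57 to 2.53. Of 16 neutrophil genes 4 fell (median -1.12). Without the 2 ctrl day 3 libraries that the hemoglobin limit emptied, 174 genes were called, and Ccl24 and Ltb4r were no longer among them.

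**Figure D5:**
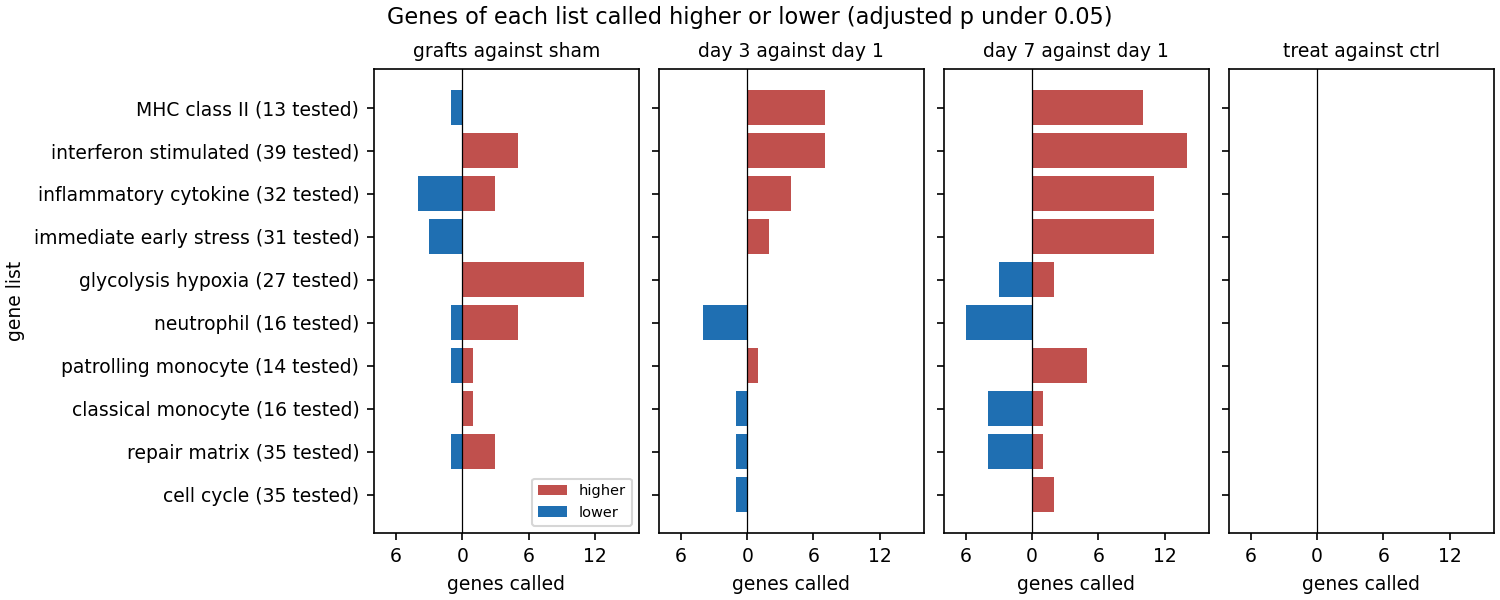
Number of genes called higher (to the right) and lower (to the left) in 10 lists (rows) for the 4 comparisons (panels), at an adjusted p under 0.05. The class II, interferon and inflammatory lists hold calls to the right on days 3 and 7, the neutrophil list to the left on those days and to the right for grafts against sham, and no gene of these lists, which do not hold Cxcl9 and Cxcl11, was called for treat against ctrl.

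Treat was compared with ctrl across the 3 days to ask whether monocytes differed where arterial flow had been raised. Only 10 of 10390 genes were called, 0.0962% of those tested, 5 in each direction (0.0481% each), and 553 (5.32%) had an unadjusted p under 0.05. The even split was not stable, since DESeq2 called 4 higher and 30 lower, and with no low count filter 39 were higher and 63 lower. The 3 treat samples stood on 1 side of the 3 ctrl samples for 6.43% of genes, and above them for 3.21%. The calls depended on the sham samples, since none remained without sham 3, when 526 had an unadjusted p under 0.05. Sham is not in this contrast but enters the spread, the scaling and the filter of the fit, and which of these mattered was not tested. Cxcl9 was higher in treat on each day, at 5.07, 466 and 335 CPM against 1.41, 34.1 and 85.0 (2.69 ± 0.39, adjusted p = 0.0331). By library on day 3 Cxcl9 was at 350 and 586 CPM in treat and 39.2, 0 and 0 in ctrl, and on day 7 at 339, 388 and 255 in treat and 132, 54.5 and 115 in ctrl. All 5 treat libraries of days 3 and 7 were above all 6 ctrl libraries, but the 2 ctrl libraries at 0 held only 76 and 27 members, and on day 1 both arms were near 0. The share of fibroblasts with a Cxcl9 UMI was also higher in treat on days 3 and 7, and its part in this difference was not tested. After subtraction of empty-barcode RNA the Cxcl9 difference, treat against ctrl, was 2.88 and still called. Cxcl11 was higher in treat on each day (2.48 ± 0.38, adjusted p = 0.0417).

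Of the genes lower in treat, Serpinb6a, an intracellular protease inhibitor, was at 91.8, 38.1 and 61.8 CPM in ctrl and 33.6, 8.14 and 10.8 in treat (-2.05 ± 0.27, adjusted p = 0.0204). Slamf9, an immune cell surface receptor, was at 127, 109 and 271 CPM in ctrl and 20.8, 24.8 and 97.3 in treat (-2.07 ± 0.34, adjusted p = 0.0452). Fbln1, an extracellular matrix gene of fibroblasts, was at 156, 74.0 and 41.1 CPM in ctrl and 77.5, 19.2 and 10.5 in treat (-1.63 ± 0.27, adjusted p = 0.0452), and Cd2, an adhesion receptor of lymphocytes, fell by 1.93 ± 0.33. Each was lower in treat on 3 of 3 days, and across days the ranges of the arms overlapped for Fbln1 alone among these 4. Without the 2 ctrl day 3 libraries that the hemoglobin limit emptied, only Cxcl9 and Serpinb6a remained called.

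Cxcl9 and Cxcl11 belong to none of the gene lists. No gene of the class II, interferon-stimulated, inflammatory, glycolysis or neutrophil lists was called between the arms, which is no result about these lists where 0.0962% of all genes were called. The medians for treat against ctrl were 0.82 for class II, -0.59 for the interferon-stimulated list, -0.83 for the neutrophil list and -0.35 for the glycolysis list, beside -0.01 over all genes. S100a8 gave -0.95 (adjusted p = 0.65) and S100a9 -1.33 (adjusted p = 0.33). Whether the arms differed more on one day than on another was not tested, with 1 sample per arm and day.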

How the data were processed

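Bile duct tissue was digested with collagenase and dispase, freed of red and dead cells, and sequenced on a droplet platform, 20 libraries of 9 samples. The deposited files hold raw UMI counts per gene and barcode as the authors' pipeline wrote them (Cell Ranger 5.0.1 and Seurat 3.2.0 per the labels). The genome build is not given in the sources used here. The members and the 21 gene lists were chosen with earlier results of these data known. UMIs of members were summed per sample and fitted with edgeR 4.0.16 (TMM, filterByExpr, glmQLFit and glmQLFTest, R 4.3.3), with 1 mean for sham, 1 for each day and 1 term for treat, and p-values were adjusted by Benjamini-Hochberg over 10390 genes. Grafts against sham is the mean of the days and arms minus sham. The SE of a log2 fold change is its size over the root of F. DESeq2 1.42.0 was an alternative. Tested on simulated data of 10390 genes, unchanged genes made up 6.58% of calls for grafts against sham, 19.0% for day 7, 18.8% for day 3 and 15.8% for treat against ctrl. These values were above the nominal share, so single calls near the threshold are weak. They depend on how many genes the simulation changed and do not give the false share of the real calls. For treat against ctrl, 49 and 100 changed genes were recovered at log2 sizes of 1 and 2, beside 10 calls in the data.

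Genes are named when called, at 50 CPM or more in a group compared and outside the gate, the 10 largest rises and falls per comparison; unnamed features are counted only, and members of the lists may be named with their value. Shares were compared by two-sided exact permutation (scipy 1.17.1). Free RNA was estimated from barcodes of at most 100 UMIs with its share set by genes of non-myeloid cells. These genes included Cd8a, Cd2, Fbln1 and Krt18, so the estimate and its subtraction do not test those genes. The deposited matrices are unfiltered, and doublet and free-RNA removal for these rat libraries are not given in the sources used here. Doublets were kept in, and left out as an alternative at a score above the 92.5 percentile of the library (10803 barcodes). Thinned shares left out 151 of 10041 members and 192 of 19695 fibroblasts, which were gated on Lum and Col3a1 without Ptprc. Comparison cells all had 0 UMIs of Cd3e, Cd79b, Epcam and Lum. C1q macrophages had at least 5 C1q UMIs and Tyrobp, neutrophils had at least 5 S100a8 UMIs and Csf3r without Fcnb, and patrolling monocytes had Csf1r, Spn and Tyrobp without Fcnb. Intervals cover counting error only. A further treat day 3 library was not used here. The other alternatives were the scaling, the low count filter, libraries as samples, a fit without day, members without neutrophil UMIs, at least 2 Fcnb UMIs, other cell filters and denominators, and each sample left out. Some items withheld from the text are not reported here.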

Additional observations from a re-analysis of the deposited data

How the results depend on the processing

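The monocyte share stayed higher in grafts than in sham without overlap under every other gate, filter, weight and denominator tried, by 4.81 to 7.60 points of kept barcodes and 17.0 points of myeloid barcodes. Leaving out a sample gave 5.85 to 8.33 points, with p above 0.05 only where a sham sample was left out, since 6 against 2 cannot pass. Numbers of called genes moved more. For grafts against sham, day 7, day 3 and treat against ctrl they were 975, 1172, 511 and 102 with no low count filter, and 959, 1106, 381 and 34 with DESeq2. With each library as a sample they were 209, 1229 and 412 for the first 3. A fit with one mean per group and no day gave 79 for grafts and 0 for treat (157 at an unadjusted p under 0.05). Thinning every sample to the shallowest, chosen after seeing the data, gave 243, 61, 10 and 0 (126 unadjusted). Without 2 ctrl day 3 libraries, also chosen afterwards, 2 remained for treat. The cause of these shifts was not tested, apart from the lower depth and the 3130 genes tested after thinning.

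Leaving out each sample gave 37 to 764 genes for grafts (37 without sham 3, 80 without sham 2), 130 to 1181 for day 7 (130 without treat day 1, 224 without ctrl day 7, 398 without treat day 7), 22 to 516 for day 3 (22 without treat day 1, 51 without treat day 3, 65 without sham 3, 114 without sham 2) and 0 to 55 for treat (0 without sham 3, 3 without sham 2, 5 without sham 1). Of 60 named or list genes called in grafts and still tested, 14 kept their call without sham 3 and 24 without sham 2. Cd8a, S100a9 and Slpi kept theirs under all 20 alternatives, and S100a8 under 19.

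Some values changed sign. Apoe on day 7 became -0.84 after subtraction of empty-barcode RNA. For treat against ctrl, Igh-6 became -1.09 with DESeq2 and ranged from -2.18 to 5.10 with a sample left out, and the value for Il1b, treat against ctrl, became -0.18 with libraries as samples and ranged from -0.24 to 0.55. The value for Il1b, grafts against sham, ranged from -0.56 to 0.046 and that for Cxcl2 from -0.33 to 0.024. None of these but Apoe and Igh-6 was called. Ctrl and treat were compared within days, by the day means of the fit and by sign flips over days for the share, and the numbers of the sham samples pair them with no graft. Low sham depth, 46 to 99 members per sample, limits what can be seen of genes at few UMIs.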
